A study of Mus musculus with 12 samples.

Results

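The 9 genes described here are Ifng, which encodes the cytokine interferon gamma, and 8 genes used as markers of T cells, natural killer (NK) cells and their cytotoxic granules: Cd3d, Cd3e, Cd3g, Ncr1, Nkg7, Prf1, Gzmb and Il2rb. They were followed across 12 RNA-seq libraries of mouse bone marrow-derived macrophages, which are grown from marrow cells with macrophage colony-stimulating factor. Members were taken by gene symbol from the deposited table of 54532 gene rows. They were chosen by name, for the Ifng counts with LPS in an earlier reading of these data and as genes of the cell types that make it. All 9 were found, no symbol was repeated, and all 9 were among the 14286 genes with enough counts to be tested. The groups, with 3 libraries each, were Lyz2-Cre-Hdac3f/f cells given 500 ng/ml lipopolysaccharide (LPS) for 4 h, Lyz2-Cre-Hdac3f/f cells kept in medium alone for those 4 h, Hdac3f/f cells given the same LPS, and Hdac3f/f cells kept in medium alone. All mice were 8 weeks old and all carried the floxed Hdac3 allele, and all cultures had 10 ng/ml of the colony-stimulating factor. Lyz2-Cre is a Cre driver active in macrophages and other myeloid cells. The 2 genotypes are called Lyz2-Cre and Hdac3f/f below. The labels do not say whether libraries of a group came from separate mice, so p-values measure the spread between these libraries only.

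Interferon gamma is made chiefly by T cells and NK cells and acts on macrophages through its receptor, which raises chemokines, antigen presentation genes and nitric oxide synthase. Interleukins 12, 15 and 18, which macrophages release after meeting bacterial products such as LPS, are its classic inducers in T and NK cells. Cd3d, Cd3e and Cd3g encode the CD3 chains of the T cell receptor complex, Ncr1 the activating receptor NKp46 of NK cells, and Il2rb the receptor chain shared by interleukins 2 and 15. Prf1 encodes perforin and Gzmb granzyme B, the pore former and the protease of cytotoxic granules, and Nkg7 encodes a membrane protein of those granules.

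Ifng lies on chr10:118441046-118445892 of mm10, on the plus strand, and Prf1 on chr10:61297833-61304680. The 3 CD3 genes sit together on chromosome 9, with Cd3g at chr9:44969572-44980431, Cd3d at chr9:44981786-44987339 and Cd3e at chr9:44998740-45009627. Cd3g ends 1355 bases before Cd3d starts. Ncr1 is at chr7:4337724-4345164, Nkg7 at chr7:43437073-43438249, Gzmb at chr14:56258838-56262260 and Il2rb at chr15:78479256-78495271. Lyz2, the locus named in the Cre driver, is on the same chromosome as Ifng, and 38 gene rows lie in the 1158.725 kb between them. Ifng overlaps 1 other annotated row on its own strand, which had 48 counts over all libraries, against 4572 for Ifng.

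The 250 bases before the RefSeq start (GRCm38.p6) are printed for 4 members that were higher after LPS, because such windows can be read beside the changes in level. They come from chr10:118440796-118441045 on the plus strand for Ifng, chr14:56262335-56262584 on the minus strand for Gzmb, chr10:61297586-61297835 on the plus strand for Prf1 and chr7:4337474-4337723 on the plus strand for Ncr1. Capitals mark the letters of 6 motifs searched on both strands: NF-kB (GGG and CC with any 5 bases between), GAS (TTCNNNGAA), AP-1 (TGANTCA), a T-box core (GTGTGA), a CRE core (TGACG) and an ISRE core (GAAA and GAAA with any 2 bases between). None of the matches shown overlaps another.
Ifng: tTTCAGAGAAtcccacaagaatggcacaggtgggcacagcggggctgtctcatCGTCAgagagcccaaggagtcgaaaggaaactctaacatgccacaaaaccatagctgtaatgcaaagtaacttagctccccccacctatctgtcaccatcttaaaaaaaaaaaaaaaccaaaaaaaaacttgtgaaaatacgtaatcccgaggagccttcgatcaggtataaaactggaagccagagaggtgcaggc
Gzmb: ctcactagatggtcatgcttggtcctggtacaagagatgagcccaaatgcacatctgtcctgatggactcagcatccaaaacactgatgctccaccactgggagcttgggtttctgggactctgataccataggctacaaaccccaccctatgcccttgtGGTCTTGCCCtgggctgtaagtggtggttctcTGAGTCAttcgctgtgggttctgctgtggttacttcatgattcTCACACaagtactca
Prf1: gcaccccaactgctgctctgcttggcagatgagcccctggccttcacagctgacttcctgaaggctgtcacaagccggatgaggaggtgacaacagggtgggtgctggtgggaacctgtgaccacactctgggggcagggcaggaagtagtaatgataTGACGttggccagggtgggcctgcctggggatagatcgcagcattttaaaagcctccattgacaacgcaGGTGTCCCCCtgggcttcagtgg
Ncr1: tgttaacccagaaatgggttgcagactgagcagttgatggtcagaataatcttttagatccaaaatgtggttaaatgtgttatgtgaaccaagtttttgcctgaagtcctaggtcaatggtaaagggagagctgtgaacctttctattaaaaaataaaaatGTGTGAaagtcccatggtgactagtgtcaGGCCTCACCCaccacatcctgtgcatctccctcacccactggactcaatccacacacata
The Ifng window held a GAS match 249 to 241 bases before the start and a CRE core on the other strand 197 to 193 bases before it. The Gzmb window held an AP-1 match 58 to 52 bases before the start. On the other strand it held an NF-kB match 90 to 81 bases and a T-box core 15 to 10 bases before the start. The Prf1 window held a CRE core 92 to 88 bases before the start and an NF-kB match on the other strand 23 to 14 bases before it. In the Ncr1 window a T-box core stood 89 to 84 bases before the start and an NF-kB match on the other strand 60 to 51 bases before it. Of all 32851 windows in the table, 45.8% held the NF-kB letters, 17.8% the CRE core, 12.3% the T-box core, 7.02% the GAS letters, 6.75% the AP-1 letters and 2.98% the ISRE core. Over the 8 members with a window, 4 held the NF-kB letters, 3 each the GAS letters, the T-box and the CRE core, 1 the AP-1 letters and 0 the ISRE core. These matches are descriptions of the letters only.

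Each library had 16553432 to 18706990 counts. Hdac3 itself was at 34.4 to 38.9 CPM in Lyz2-Cre libraries with LPS and at 38.7 to 40.7 CPM in Hdac3f/f libraries with LPS. Without LPS it was at 33.1 to 36.6 CPM in Lyz2-Cre libraries and at 36.3 to 39.7 CPM in Hdac3f/f libraries. CPM here is the usual count per library total, with that total scaled by TMM, edgeR's trimmed mean normalisation. The log2 fold change of Hdac3 was -0.09 ± 0.09 (SE) with LPS and -0.14 ± 0.09 without, with edgeR adjusted p = 0.473 and 0.352, so counts over the whole gene do not separate the labelled genotypes. The counts do not show which exons were read, and the genotypes below are those of the labels. The genotypes did not overlap for Lyz2, which was at 31.0 to 7728 CPM in Lyz2-Cre libraries and at 9318 to 12351 CPM in Hdac3f/f libraries. Its fitted difference was -0.77 ± 0.94 with LPS and -1.54 ± 0.96 without and was not called (edgeR adjusted p = 0.557 and 0.307). Replicate 1 of untreated Lyz2-Cre stood apart, with 31.0 CPM, against 5181 and 5637 CPM in the other untreated Lyz2-Cre libraries. The labelled cell type had its markers. The macrophage list of 12 holds Lyz2 itself, which made up 0.433% to 45.2% of the summed level in Lyz2-Cre and 44.8% to 63.5% in Hdac3f/f libraries. The other 11 genes summed to 13425 to 13563 CPM in Lyz2-Cre and 12954 to 14281 CPM in Hdac3f/f libraries with LPS, and to 6594 to 7135 CPM in Lyz2-Cre and 6139 to 6899 CPM in Hdac3f/f libraries without LPS, with the genotypes overlapping in both conditions.

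Ifng was near 0 in every library without LPS and among the better expressed of these genes after it, and its genotypes overlapped. With LPS it was at 43.0, 46.8 and 52.0 CPM in Lyz2-Cre libraries and at 37.3, 37.9 and 86.4 CPM in Hdac3f/f libraries. The groups overlapped, because replicate 3 of Hdac3f/f with LPS lay above every Lyz2-Cre library and the other replicates of its group below them. Without LPS, Ifng had 1, 2 and 2 counts in Lyz2-Cre libraries and 1, 2 and 0 counts in Hdac3f/f libraries. A count of 0 in that last library allows a level of up to 0.153 CPM, a floor of 3 counts that covers counting error only. The ratio of summed counts per summed TMM-scaled library total, with LPS over without, was 596 in Lyz2-Cre cells (95% counting interval 255 to 1838) and 1136 in Hdac3f/f cells (388 to 5514). Ifng was listed for its LPS response in an earlier reading of these data, so those ratios carry no test.

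The genotype difference of Ifng was not used to choose it. With LPS it was -0.19 ± 0.27 on the log2 scale (SE, 95% interval -0.77 to 0.39, edgeR adjusted p = 0.616). Without replicate 3 of Hdac3f/f with LPS it was 0.34 (adjusted p = 0.151), and with library totals in place of TMM 0.085 (adjusted p = 0.822), so the sign depends on 1 library and on the scaling. Without LPS the 5 counts in Lyz2-Cre and 3 counts in Hdac3f/f libraries gave a ratio of 1.67 with an interval of 0.324 to 10.7, and a difference was not detectable at this depth. In bulk libraries, more cells of a type and more RNA per cell cannot be told apart, here and for every gene below.

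Of the cytotoxic granule genes, Gzmb and Prf1 rose after LPS in both genotypes, and Nkg7 did not pass the test in either. Gzmb was at 29.5, 40.0 and 59.2 CPM in Lyz2-Cre and at 16.3, 25.9 and 39.1 CPM in Hdac3f/f libraries with LPS. Untreated libraries had 10.3, 7.70 and 9.85 CPM in Lyz2-Cre and 3.86, 4.53 and 4.14 CPM in Hdac3f/f cells. Every library with LPS was above every library of its genotype without it, and the genotypes overlapped with LPS and were apart without it. The share of all tested genes separated by LPS in this way is not given here, for Gzmb or for the genes below. The LPS response was 2.21 ± 0.30 in Lyz2-Cre (adjusted p = 3.99e-05) and 2.70 ± 0.32 in Hdac3f/f (adjusted p = 8.3e-06), as log2 fold changes with SE from edgeR's quasi-likelihood test adjusted over all tested genes. Between genotypes, Gzmb differed by 0.66 ± 0.28 with LPS (95% interval 0.05 to 1.28, adjusted p = 0.0898) and by 1.15 ± 0.31 in untreated libraries (adjusted p = 0.0338). How reads shared with other granzyme genes were counted is not given in the sources used here.

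Prf1 had 0.437, 0.578 and 0.348 CPM in Lyz2-Cre and 0.390, 0.389 and 0.460 CPM in Hdac3f/f libraries without LPS. With LPS it was at 2.05, 3.41 and 4.70 CPM in Lyz2-Cre and at 0.695, 1.95 and 3.12 CPM in Hdac3f/f libraries. Perforin transcripts were thus low in all untreated libraries, and the genotypes overlapped in both conditions. The LPS response was 2.87 ± 0.49 in Lyz2-Cre (edgeR adjusted p = 0.000275) and 2.20 ± 0.51 in Hdac3f/f (adjusted p = 0.00223). The genotype difference was 0.15 ± 0.56 without LPS (95% interval -1.07 to 1.36) and 0.82 ± 0.44 with LPS (-0.13 to 1.77), with edgeR adjusted p = 0.885 and 0.166.

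Nkg7 was at 5.67, 4.39 and 8.34 CPM in Lyz2-Cre and at 1.18, 3.51 and 5.15 CPM in Hdac3f/f libraries with LPS. Without LPS it was at 5.49, 3.56 and 4.93 CPM in Lyz2-Cre and at 3.17, 3.07 and 2.81 CPM in Hdac3f/f libraries. The untreated genotypes did not overlap, whereas with LPS the Hdac3f/f libraries spread widely. Its LPS response was 0.40 ± 0.38 in Lyz2-Cre (95% interval -0.42 to 1.21) and 0.12 ± 0.40 in Hdac3f/f (-0.75 to 0.98). The genotype difference was 0.62 ± 0.38 without LPS and 0.90 ± 0.39 with LPS, with edgeR adjusted p = 0.303 and 0.0946.

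Both receptor genes, Il2rb and Ncr1, rose after LPS in each genotype and were higher in Lyz2-Cre than in Hdac3f/f libraries in each condition. Il2rb was at 59.8, 51.2 and 85.5 CPM in Lyz2-Cre and at 22.2, 26.7 and 50.4 CPM in Hdac3f/f libraries with LPS. In medium alone the values were 19.2, 15.7 and 20.5 CPM in Lyz2-Cre and 11.1, 6.08 and 6.96 CPM in Hdac3f/f libraries. No groups set against each other overlapped, although replicate 3 of Hdac3f/f with LPS came within 1 CPM of the lowest Lyz2-Cre library. The LPS response was 1.83 ± 0.30 in Lyz2-Cre (edgeR adjusted p = 0.000236) and 2.03 ± 0.32 in Hdac3f/f (adjusted p = 0.000103). The genotype difference was 0.98 ± 0.30 with LPS (adjusted p = 0.0248) and 1.19 ± 0.31 without (adjusted p = 0.0293).

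Ncr1 was at 4.65, 3.58 and 6.08 CPM in Lyz2-Cre and at 1.60, 2.11 and 2.32 CPM in Hdac3f/f libraries with LPS. Without LPS it was at 1.07, 1.51 and 2.24 CPM in Lyz2-Cre and at 0.868, 0.535 and 0.460 CPM in Hdac3f/f libraries. As with Il2rb, none of these pairs of groups overlapped. The LPS response was 1.57 ± 0.32 in Lyz2-Cre (edgeR adjusted p = 0.0011) and 1.67 ± 0.37 in Hdac3f/f (adjusted p = 0.00151). The genotype difference was 1.25 ± 0.32 with LPS (adjusted p = 0.0121) and 1.35 ± 0.36 without (adjusted p = 0.0312).

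**Figure D1:**
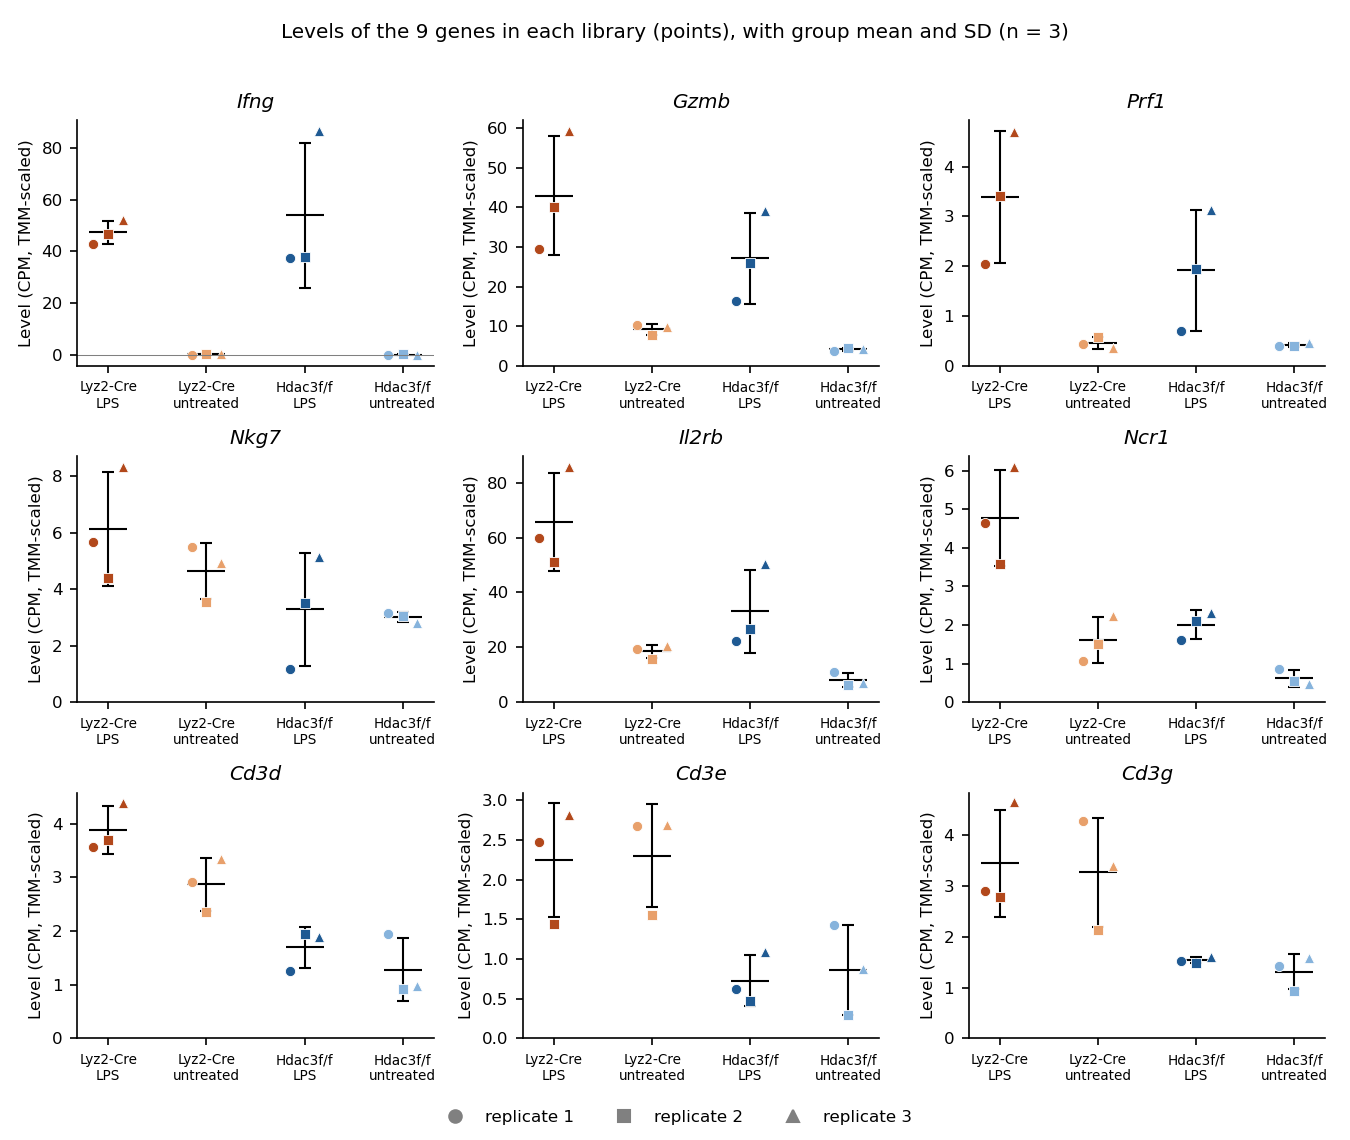
Levels of the 9 genes in each of the 12 libraries, in CPM of the TMM-scaled library total on linear axes, with points for libraries, long bars for group means and whiskers for the SD (n = 3). Ifng, Gzmb, Prf1, Il2rb and Ncr1 sit higher with LPS in both genotypes, and the 3 CD3 genes sit higher in Lyz2-Cre than in Hdac3f/f libraries with and without LPS.

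The CD3 genes were higher in Lyz2-Cre than in Hdac3f/f libraries in both conditions, Cd3e falling short of the threshold without LPS, and none of the 3 passed the test for LPS with all libraries in the fit. Cd3d was at 3.56, 3.70 and 4.39 CPM in Lyz2-Cre and at 1.25, 1.95 and 1.89 CPM in Hdac3f/f libraries with LPS. Untreated cells had 2.92, 2.36 and 3.33 CPM in Lyz2-Cre and 1.95, 0.925 and 0.972 CPM in Hdac3f/f libraries. The genotypes were apart in both conditions, by 1.20 ± 0.31 with LPS (edgeR adjusted p = 0.0118) and 1.14 ± 0.30 without (adjusted p = 0.0302).

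Cd3g was at 2.90, 2.77 and 4.64 CPM in Lyz2-Cre and at 1.53, 1.48 and 1.60 CPM in Hdac3f/f libraries with LPS, a difference of 1.16 ± 0.32 (edgeR adjusted p = 0.0174). Without LPS it was at 4.28, 2.14 and 3.38 CPM in Lyz2-Cre and at 1.43, 0.925 and 1.59 CPM in Hdac3f/f libraries, a difference of 1.31 ± 0.31 (adjusted p = 0.0195). Here too no library of one genotype reached the range of the other. Cd3e, the least abundant of the 3, was at 2.48, 1.45 and 2.82 CPM in Lyz2-Cre and at 0.625, 0.468 and 1.09 CPM in Hdac3f/f libraries with LPS. In untreated libraries the values were 2.67, 1.56 and 2.69 CPM in Lyz2-Cre and 1.43, 0.292 and 0.869 CPM in Hdac3f/f libraries. The genotypes again did not overlap, and the difference of Cd3e was 1.61 ± 0.51 with LPS (edgeR adjusted p = 0.03) and 1.39 ± 0.47 without (adjusted p = 0.0745).

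The LPS responses of the CD3 genes had intervals around 0. In Lyz2-Cre cells they were 0.44 ± 0.29 for Cd3d, -0.04 ± 0.45 for Cd3e and 0.07 ± 0.30 for Cd3g, with edgeR adjusted p = 0.221, 0.951 and 0.85. In Hdac3f/f cells they were 0.39 ± 0.32, -0.26 ± 0.54 and 0.22 ± 0.34, in the same order, with adjusted p = 0.324, 0.706 and 0.591. Without replicate 1 of untreated Hdac3f/f, the response of Cd3d in Hdac3f/f cells was 0.83 and was called (adjusted p = 0.0331), and with library totals it was -0.28. All CD3 counts of a library together came to 137 to 189 in Lyz2-Cre and 49 to 63 in Hdac3f/f libraries with LPS, and to 136 to 203 in Lyz2-Cre and 44 to 111 in Hdac3f/f libraries without LPS, so each estimate rests on few reads.

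**Figure D2:**
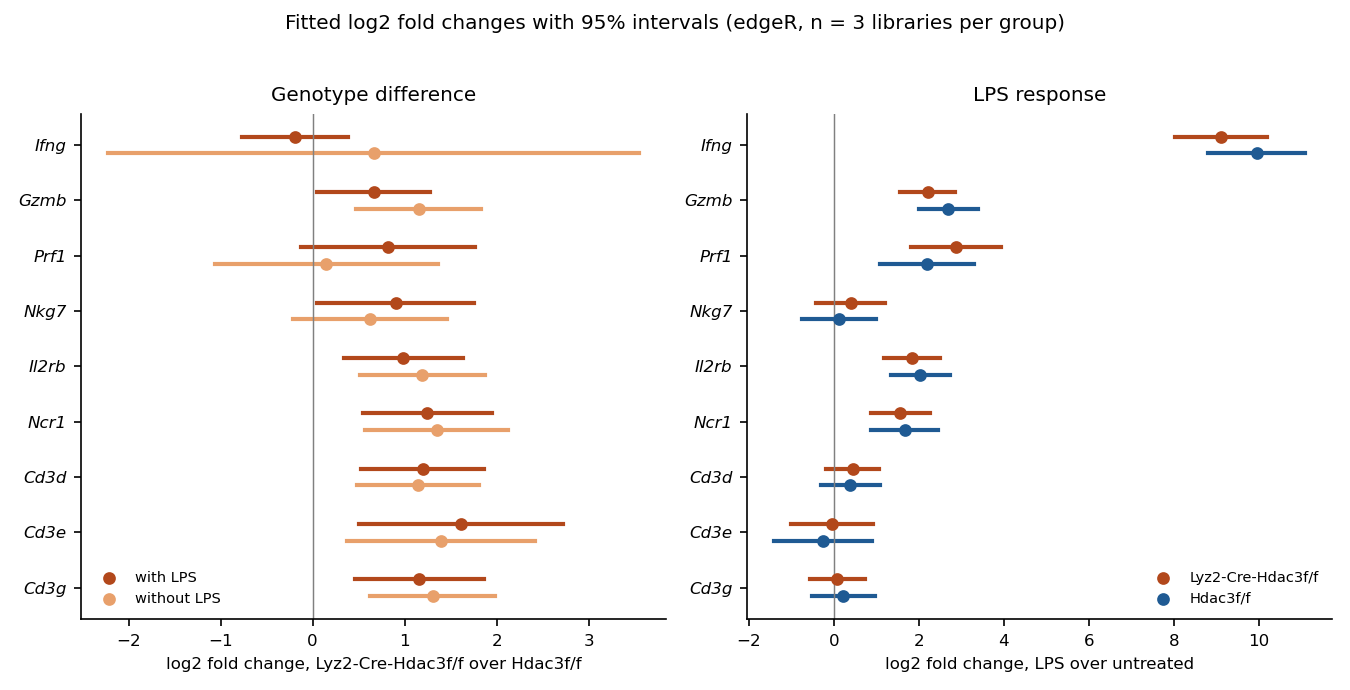
Fitted log2 fold changes of the 9 genes with 95% intervals from edgeR (n = 3 libraries per group), for the genotype difference (left) and the LPS response (right). The genotype intervals of Cd3d, Cd3e, Cd3g, Ncr1, Gzmb and Il2rb lie above 0 in both conditions, and the LPS intervals of the CD3 genes and Nkg7 include 0. Ifng was chosen for its LPS response, so its LPS intervals are a description and carry no test.

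The members' counts are given beside those of all tested genes. Ifng, chosen for its LPS counts, is left out of the counts for LPS. Of the other 8 members, 4 were called higher (adjusted p under 0.05) and 0 lower after LPS in Lyz2-Cre cells, where 25.2% of all tested genes were called higher and 27.7% lower. In Hdac3f/f cells the same 4 members, Ncr1, Prf1, Gzmb and Il2rb, were called higher and 0 lower (also 0 in either genotype at an unadjusted p under 0.05 and by DESeq2), where 28.0% of all genes were called higher and 32.1% lower. With library totals in place of TMM, 2109 genes were called higher and 6463 lower after LPS in Lyz2-Cre cells, against 3606 and 3958 with TMM, and 2086 higher and 8242 lower in Hdac3f/f cells, against 3993 and 4591. These 4 were called in both genotypes under every alternative scaling, filter and test tried and without any single library.

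Between genotypes, 5 of 9 members were called higher in Lyz2-Cre with LPS, namely Cd3d, Cd3e, Cd3g, Ncr1 and Il2rb, where 15.7% of all tested genes were called higher and 16.9% lower. With library totals in place of TMM, 7 members were called higher, where 31.3% of all tested genes were called higher and 9.30% lower. Without LPS the 5 called higher were Cd3d, Cd3g, Ncr1, Gzmb and Il2rb, where 5.12% of all genes were called higher and 6.66% lower. In each condition edgeR called 0 members lower, also at an unadjusted p under 0.05, and DESeq2 likewise called 0 lower. The members' median difference was 0.98 with LPS and 1.15 without, beside medians of 0.02 and 0.03 over all tested genes. All 3 Lyz2-Cre libraries lay above all 3 Hdac3f/f libraries for 5 members with LPS, where 20.5% of all genes did so, and for 7 members without LPS, where 20.0% did so.

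Several of these calls changed when 1 library was left out. With LPS, 2 members remained called (Cd3d and Ncr1) without replicate 2 of Hdac3f/f or without replicate 3 of Lyz2-Cre, and 3 (Cd3d, Cd3g and Ncr1) without replicate 1 of either genotype. Without replicate 3 of Hdac3f/f with LPS, 7 were called, with Nkg7 and Gzmb added, and these were added as well with library totals in place of TMM and with no filter on low counts. Without LPS, 0 members were called without replicate 2 of Hdac3f/f or replicate 3 of Lyz2-Cre, and 1 (Cd3g) without replicate 3 of Hdac3f/f. Without replicate 1 of Hdac3f/f the call of Gzmb was lost and that of Cd3e gained, and without replicate 2 of Lyz2-Cre the call of Ncr1 was lost. Leaving out replicate 1 of untreated Lyz2-Cre, the library with little Lyz2, left 1 call (Ncr1), and the differences then were 1.13 for Cd3d, 1.06 for Cd3g, 1.56 for Ncr1, 1.07 for Gzmb and 1.16 for Il2rb. In the authors' deposited table, the comparison with LPS had adjusted p = 0.00357 for Ncr1, 0.00427 for Il2rb, 0.00671 for Cd3d, 0.012 for Cd3e, 0.0167 for Cd3g and 0.0954 for Gzmb. Its untreated comparison, also in the authors' deposited table, had 2.45e-05 for Gzmb, 3.74e-05 for Il2rb, 0.0136 for Cd3g, 0.042 for Cd3d, 0.06 for Cd3e and 0.0681 for Ncr1.

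The LPS response itself was not shown to differ between genotypes for any member. The interaction, the LPS response in Lyz2-Cre minus that in Hdac3f/f, was called for 0 of 9 members by edgeR, where 8.12% of all tested genes were called. At an unadjusted p under 0.05 the count was also 0, and DESeq2 called 0. Point estimates ran from -0.85 ± 1.38 for Ifng, which rests on single counts without LPS, to 0.67 ± 0.72 for Prf1. For Gzmb the interaction was -0.49 ± 0.42 (95% interval -1.40 to 0.43), and for Il2rb -0.21 ± 0.43 (-1.13 to 0.72).

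With LPS, most members were highest in the same library of a group. Replicate 3 was the highest Lyz2-Cre library for all 9 members, where 37.1% of all tested genes were highest in it, and replicate 3 of Hdac3f/f was the highest for 8 of 9, the exception being Cd3d, where 26.03% of all genes were. Replicate 1 of Hdac3f/f with LPS was the lowest of its group for 7 members, where 39.2% of all genes were lowest in it. Untreated libraries were more divided for the highest value. Replicates 1, 2 and 3 of Lyz2-Cre were the highest for 3, 1 and 5 members, where 37.1%, 32.8% and 30.1% of all genes were. Those of Hdac3f/f were the highest for 5, 2 and 2, where 42.6%, 18.8% and 38.6% of all genes were. Replicate 2 of untreated Lyz2-Cre was the lowest for 6 members, where 35.2% of all genes were lowest in it. Replicate 2 of untreated Hdac3f/f was the lowest for 5, where 21.5% of all genes were. Over all 12 libraries, deviations of Ifng from its group means had r = -0.23 with Cd3g, 0.046 with Cd3e and 0.20 with Cd3d. With Ncr1, Nkg7, Prf1, Il2rb and Gzmb they had r = 0.44, 0.53, 0.54, 0.54 and 0.61. Pairs without Ifng ran from 0.12 (Cd3e and Prf1) to 0.86 (Nkg7 and Gzmb). These r are given as a description.

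Levels of different genes were compared only in FPKM, which is per gene length. In Lyz2-Cre libraries with LPS the order was Ifng (36.1 ± 3.73 FPKM, SD, n = 3), Gzmb (29.6 ± 10.6), Il2rb (15.1 ± 4.20), Nkg7 (6.63 ± 2.21), Ncr1 (3.06 ± 0.816), Cd3d (2.11 ± 0.256), Prf1 (1.30 ± 0.516), Cd3g (1.04 ± 0.322) and Cd3e (0.544 ± 0.174). Ranges of neighbours overlapped for Ifng and Gzmb, for Ncr1 and Cd3d, and for Prf1 and Cd3g. In Hdac3f/f libraries with LPS the order of the means was the same, with Ifng at 42.6 ± 22.8, Gzmb at 19.3 ± 8.41 and Cd3e at 0.182 ± 0.083 FPKM. There each gene between Gzmb and Cd3g overlapped its neighbours.

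Without LPS, Ifng was the lowest of the 9. It was at 0.059 ± 0.020 FPKM in Lyz2-Cre and 0.035 ± 0.037 FPKM in Hdac3f/f libraries, and listed at 0 in 1 of the Hdac3f/f libraries. Gzmb (6.21 ± 0.924 FPKM), Nkg7 (4.90 ± 1.04) and Il2rb (4.14 ± 0.566) led in Lyz2-Cre libraries, with Nkg7 overlapping both others. In untreated Hdac3f/f libraries Nkg7 (3.23 ± 0.150) and Gzmb (2.85 ± 0.242) led and overlapped each other. Prf1 stood just above Ifng in both, at 0.169 ± 0.043 FPKM in Lyz2-Cre and 0.157 ± 0.018 FPKM in Hdac3f/f libraries.

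**Figure D3:**
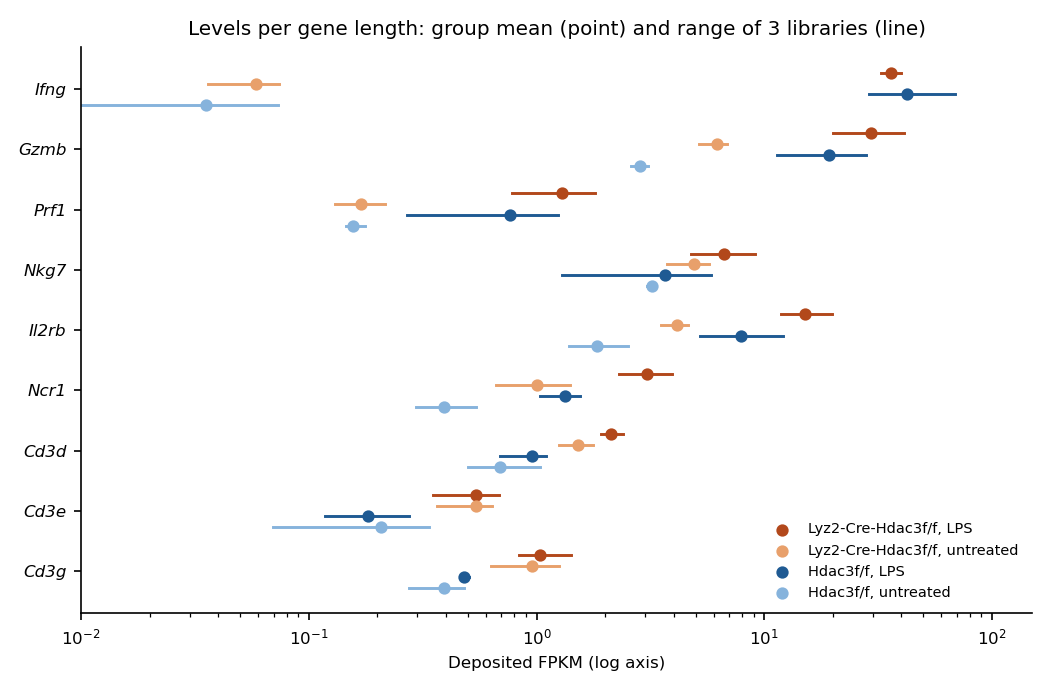
Deposited FPKM of the 9 genes on a log axis, with points for group means and lines for the range of 3 libraries. Ifng is the lowest gene in both untreated groups and the highest in both groups with LPS, and the untreated Hdac3f/f line runs to the axis edge because 1 library is listed at 0.

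Other T and NK cell genes were followed from lists that hold none of the 9 members. Some lists below share genes, Il15, Il15ra and Tbx21 among them, so their counts are not independent. Among all 14286 tested genes, 15.7% were called higher and 16.9% lower in Lyz2-Cre with LPS. Without LPS the shares were 5.12% and 6.66%, and these shares stand beside every list below. Of 18 tested NK and cytotoxic genes, 13 were higher in Lyz2-Cre with LPS and 9 without, and edgeR called 0 lower in either. At an unadjusted p under 0.05, 0 of them were lower with LPS and 1 without, and DESeq2 called 0 lower in either. The list's median difference was 1.15 with LPS and 1.26 without. Klrd1, which encodes the CD94 receptor chain, was higher by 1.73 ± 0.28 with LPS and 1.65 ± 0.25 without (edgeR adjusted p = 0.000979 and 0.00171). Ctsw, a cathepsin of cytotoxic cells, was higher by 1.15 ± 0.23 with LPS and 1.01 ± 0.23 without, and Cd226, an activating receptor, by 2.06 ± 0.44 with LPS. With LPS, 6 were called higher without replicate 2 of Hdac3f/f or replicate 3 of Lyz2-Cre, and 8 without replicate 1 of either genotype. In untreated libraries 3 were called higher without replicate 2 or 3 of Hdac3f/f, 4 without replicate 3 of Lyz2-Cre, and 6 of 19 tested without its replicate 1.

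After LPS, 8 of these NK and cytotoxic genes rose and 5 fell in Lyz2-Cre cells, and 8 rose and 4 fell in Hdac3f/f cells. Of all tested genes, 25.2% rose and 27.7% fell in Lyz2-Cre cells, and 28.0% rose and 32.1% fell in Hdac3f/f cells. Tbx21, the transcription factor T-bet that drives Ifng in T and NK cells, rose by 1.995 ± 0.298 in Lyz2-Cre and 2.38 ± 0.33 in Hdac3f/f cells. Gzmc, a granzyme of the same gene family, rose by 2.59 ± 0.31 in Lyz2-Cre and 3.25 ± 0.34 in Hdac3f/f cells, and the chemokine gene Xcl1 by 2.67 ± 0.30 and 2.41 ± 0.32 in the same order. Leaving out 1 library gave as few as 4 that rose and 2 that fell in Hdac3f/f cells, and 2 that fell in Lyz2-Cre cells. Cd7 fell by 1.79 on the log2 scale in Lyz2-Cre cells. The interaction was called for 0 of 18 by edgeR, for 0 at an unadjusted p under 0.05, and for 0 by DESeq2.

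Of 23 tested T cell genes, 8 were higher and 1 lower in Lyz2-Cre with LPS, where 15.7% of all tested genes were higher and 16.9% lower. Without LPS 5 were higher and 1 lower, where 5.12% and 6.66% of all genes were. The list's medians were 0.78 with LPS and 0.74 without. Trbc1, a constant region of the T cell receptor beta chain, was higher by 1.84 ± 0.29 with LPS and 1.08 ± 0.26 without. Tcf7, a T cell transcription factor, was higher by 1.57 ± 0.27 with LPS and 1.11 ± 0.26 without, and Skap1, an adaptor of T cell adhesion, by 1.65 ± 0.37 and 1.46 ± 0.36. The gene that was lower in both conditions was Cd4, named here after its values were seen. With LPS, 5 were called higher without replicate 3 of Lyz2-Cre. In untreated libraries 1 was called higher without replicate 2 of Hdac3f/f or replicate 3 of Lyz2-Cre, and 2 without replicate 3 of Hdac3f/f or replicate 1 of Lyz2-Cre. The alpha chain gene Trac was at 0.867 to 1.32 CPM in Lyz2-Cre and 0.702 to 1.16 CPM in Hdac3f/f libraries with LPS, and at 0.712 to 1.41 CPM in Lyz2-Cre and 0.460 to 1.39 CPM in Hdac3f/f libraries without. Its groups overlapped in both conditions, with genotype differences of 0.29 ± 0.43 with LPS and 0.28 ± 0.41 without. After LPS, 4 of the T cell genes rose and 3 fell in Lyz2-Cre cells, where 25.2% of all tested genes rose and 27.7% fell. In Hdac3f/f cells 5 rose and 4 fell, where 28.0% and 32.1% of all genes did. Cd28 fell, at -4.24 ± 0.26 in Lyz2-Cre and -5.10 ± 0.28 in Hdac3f/f cells. Cd247, the zeta chain that joins the CD3 chains in the receptor complex, rose after LPS by 2.06 ± 0.33 in Lyz2-Cre and 4.15 ± 0.38 in Hdac3f/f cells. It was the 1 gene of the list with a called interaction (-2.10 ± 0.51, edgeR adjusted p = 0.0254), a call lost when any 1 of 7 libraries was left out. Untreated Hdac3f/f libraries together had 21 counts of Cd247 (0.146 to 0.521 CPM), so its response there and the interaction rest on few counts.

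The summed level of the NK and cytotoxic list was 88.0 to 144 CPM in Lyz2-Cre and 41.9 to 76.7 CPM in Hdac3f/f libraries with LPS, and 46.1 to 55.1 CPM in Lyz2-Cre and 22.2 to 29.8 CPM in Hdac3f/f libraries without. These sums were higher in Lyz2-Cre than in Hdac3f/f libraries in both conditions with no overlap. The members' own sums did not overlap without LPS, at 35.1 to 47.4 CPM in Lyz2-Cre and 16.8 to 24.3 CPM in Hdac3f/f libraries. With LPS they overlapped, at 154 to 228 CPM in Lyz2-Cre and 82.7 to 191 CPM in Hdac3f/f libraries. Those sums include Ifng, which was at 43.0 to 52.0 CPM in Lyz2-Cre libraries with LPS. Ifng was at 86.4 CPM in replicate 3 of Hdac3f/f, the library whose sum reached the Lyz2-Cre range. The summed T cell list overlapped between genotypes, at 161 to 216 CPM in Lyz2-Cre and 170 to 222 CPM in Hdac3f/f libraries with LPS and at 311 to 317 CPM in Lyz2-Cre and 314 to 508 CPM in Hdac3f/f libraries without. Most of that sum was Cd4, Il7r and Cd28 in untreated libraries, where Cd4 alone reached 99.7 to 161 CPM in Lyz2-Cre and 193 to 337 CPM in Hdac3f/f libraries. None of the T, NK or B cell list genes was at 0 in all libraries. The part of cells other than macrophages in the members' levels was not tested.

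B cell and innate lymphoid genes gave less to read. Of 10 B cell genes, 1 was tested, Cd79b, and the list summed to 1.21 to 3.20 CPM in Lyz2-Cre and 1.87 to 3.27 CPM in Hdac3f/f libraries with LPS, and to 3.06 to 5.92 CPM in Lyz2-Cre and 5.16 to 6.25 CPM in Hdac3f/f libraries without. Of 8 tested innate lymphoid genes, 3 were higher in Lyz2-Cre with LPS (Rora, Kit and Zbtb16) and 1 without (Il23r, 3.94 ± 0.49), and edgeR called 0 lower. Without replicate 2 of Hdac3f/f or replicate 3 of Lyz2-Cre with LPS, 1 was called higher there. DESeq2 called 1 of them lower with LPS and 0 without, and at an unadjusted p under 0.05 edgeR had 1 lower with LPS and 0 without. The Il23r difference rests on few counts, 83 in Lyz2-Cre and 5 in Hdac3f/f libraries without LPS. Zbtb16 had 51 and 12 counts with LPS, in the same order. Without LPS its mean ran the other way, at 1.01 CPM in Lyz2-Cre and 2.04 CPM in Hdac3f/f libraries.

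Macrophage genes split by genotype. Of 12, 4 were higher and 4 lower in Lyz2-Cre with LPS, where 15.7% of all tested genes were higher and 16.9% lower. Without LPS 1 was higher and 2 lower, where 5.12% and 6.66% of all genes were. Itgam, which encodes CD11b, was lower in both conditions, at -1.31 ± 0.12 with LPS and -1.22 ± 0.12 without. The list's median was 0.20 with LPS and -0.03 without. Leaving out 1 library, the genes called higher with LPS numbered 0 to 3, with 0 lacking replicate 1 of Lyz2-Cre.

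Genes that induce Ifng rose with LPS in both genotypes, 14 of 18 tested in each, and edgeR called 0 lower in either. At an unadjusted p under 0.05 and by DESeq2, 0 were lower too, whereas with library totals 2 were lower in each. Of all tested genes, 25.2% were called higher and 27.7% lower after LPS in Lyz2-Cre, and 28.0% and 32.1% in Hdac3f/f cells. Il12a and Il12b, the subunits of interleukin 12, rose by 7.21 ± 0.33 and 6.25 ± 0.32 in Lyz2-Cre and by 7.23 ± 0.35 and 7.10 ± 0.34 in Hdac3f/f cells. With LPS the list was divided between genotypes, with 6 higher and 6 lower in Lyz2-Cre. The cytokine genes Il27 (-1.78 ± 0.18) and Il15 (-1.21 ± 0.16) and the kinase gene Tyk2 (-1.02 ± 0.12) were lower, and the receptor gene Il12rb2 was higher (1.42 ± 0.18). Without LPS, 7 were higher and 0 lower by edgeR, with 1 lower at an unadjusted p under 0.05 and 0 by DESeq2, led by the receptor genes Il12rb1 (2.35 ± 0.25) and Il18r1 (1.99 ± 0.40). Those 7 became 3 without replicate 2 of Hdac3f/f or replicate 3 of Lyz2-Cre, 2 without replicate 3 of Hdac3f/f and 4 without replicate 2 of Lyz2-Cre, and the 6 higher with LPS became 3 without replicate 1 of Lyz2-Cre. The interaction was called positive for 1 and negative for 8, where 2.58% of all tested genes were positive and 5.54% negative. Among the 8 were Il27 (-2.92 ± 0.33), Il15 (-1.68 ± 0.23) and Il15ra (-2.13 ± 0.30).

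Of 22 tested targets of interferon gamma, 10 were lower in Lyz2-Cre with LPS, where 16.9% of all tested genes were. Without LPS 10 were higher, where 5.12% of all genes were, and the rest were not called. With LPS edgeR called 0 higher, also at an unadjusted p under 0.05, as did DESeq2, and the median was -0.46. With library totals in place of TMM, 8 were lower and 0 higher. Cxcl9 (-2.61 ± 0.40) and Cxcl10 (-1.55 ± 0.26), chemokines for T cells, Ciita (-1.52 ± 0.23), the regulator of class II antigen presentation, and Tap1 (-0.83 ± 0.14), a peptide transporter, were lower. Without LPS edgeR called 0 lower, also at an unadjusted p under 0.05 and by DESeq2, with a median of 0.58. Among those higher were Nos2 (2.63 ± 0.45), the inducible nitric oxide synthase, and Cd274 (1.44 ± 0.16), which encodes PD-L1. In untreated libraries 5 were called higher without replicate 2 of Hdac3f/f or replicate 3 of Lyz2-Cre, and 4 without replicate 3 of Hdac3f/f. The interaction was negative for 14 of 22 and positive for 0, with a median of -1.10. Of all tested genes, 5.54% had a negative and 2.58% a positive call. Without replicate 3 of Hdac3f/f with LPS the interaction was negative for 9 targets. No target had an unadjusted p under 0.05 in the positive direction, and DESeq2 called 0 positive.

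**Figure D4:**
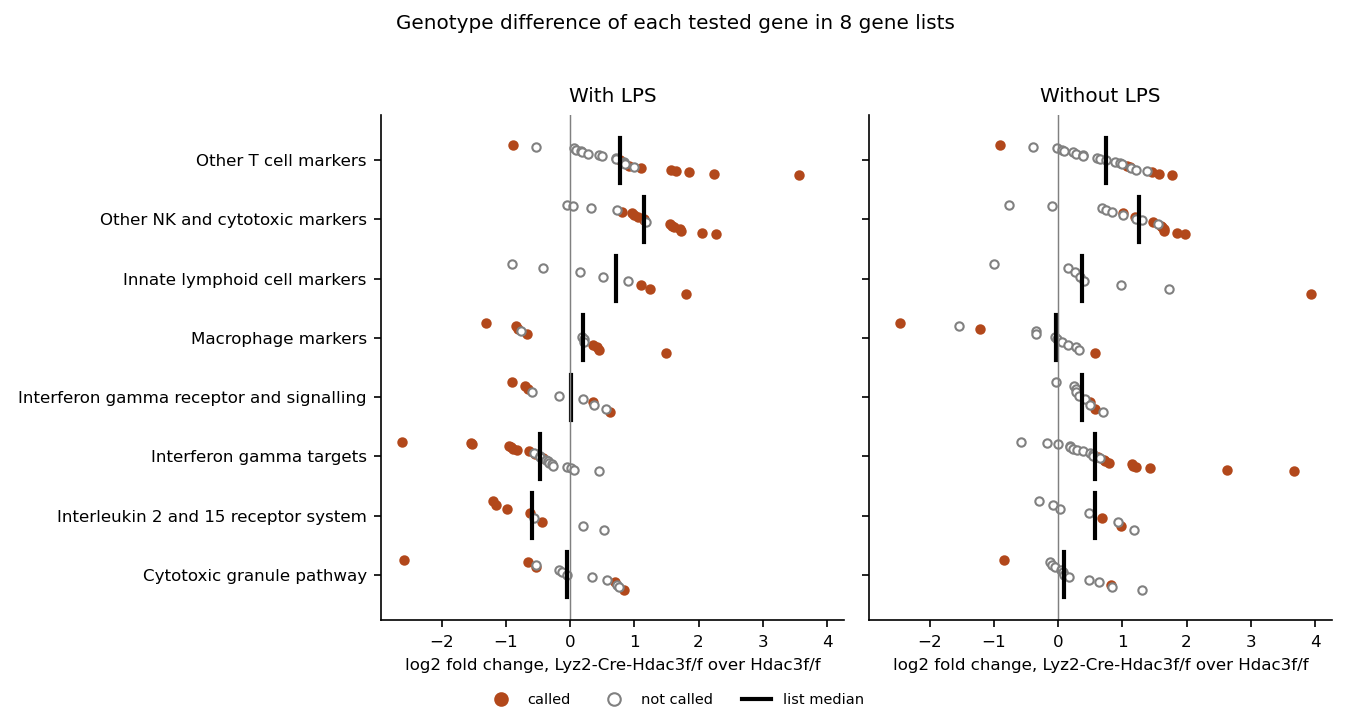
Genotype difference (log2 fold change, Lyz2-Cre-Hdac3f/f over Hdac3f/f) of each tested gene in 8 gene lists, with LPS on the left and without on the right. Filled points were called at an adjusted p under 0.05, and bars mark list medians. The NK and cytotoxic list has medians of 1.15 with LPS and 1.26 without, and the interferon gamma targets have medians of -0.46 with LPS and 0.58 without.

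The genes that carry the interferon gamma signal also divided, as all tested genes did. Of 10, 2 were higher and 3 lower in Lyz2-Cre with LPS, where 15.7% of all tested genes were higher and 16.9% lower. The receptor chain Ifngr1 was at 0.63 ± 0.14, the other chain Ifngr2 at -0.66 ± 0.10 and the transcription factor Irf1 at -0.90 ± 0.14. With library totals, 4 were higher and 2 lower. Without LPS, 2 were higher and 0 lower, also at an unadjusted p under 0.05 and by DESeq2, and Irf1 was among those higher (0.50 ± 0.14). Both counts of higher genes hung on single libraries, at 1 to 5 with LPS and 0 to 5 without when 1 was left out, with 5 lacking replicate 1 of Hdac3f/f in the same condition.

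Partners of Il2rb were lower in Lyz2-Cre with LPS or were not called. Of 8 tested genes of the interleukin 2 and 15 receptor system, which include Il15 and Il15ra from the inducers above, 0 were higher and 5 lower by edgeR. Of all genes, 15.7% were higher and 16.9% lower. At an unadjusted p under 0.05, 0 were higher, and DESeq2 called 0 higher. With library totals, 2 were higher and 4 lower. Stat5a, a transcription factor of the pathway, was at -0.98 ± 0.11, Il15ra, which presents interleukin 15, at -1.15 ± 0.20, and the kinase gene Jak3 at -0.63 ± 0.11. Without LPS, the common gamma chain Il2rg (0.68 ± 0.12) and Il15ra (0.98 ± 0.22) were the 2 genes called higher, and 1 was called without replicate 2 or 3 of Hdac3f/f or replicate 3 of Lyz2-Cre.

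The machinery of cytotoxic granules, apart from the members, did not move one way, and nor did all tested genes. Of 13 genes, 2 were higher and 3 lower in Lyz2-Cre with LPS, where 15.7% of all tested genes were higher and 16.9% lower. Without LPS 1 was higher and 1 lower, where 5.12% and 6.66% of all genes were. Counts so near those shares are not read as particular to this list. Ctsc, the protease that activates granzymes, was higher in both conditions (0.69 ± 0.15 with LPS, 0.83 ± 0.15 without). With LPS, Cst7 (-2.59 ± 0.30), a cystatin, and Srgn (-0.65 ± 0.14), the proteoglycan of granules, were lower. With library totals, 5 were higher and 3 lower with LPS, and leaving out 1 library gave 1 to 4 higher.

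Likeness of pattern was measured as Pearson's r of log2 CPM (prior count 2) over the 12 libraries, among 9577 genes that average at least 5 CPM in a group. Members and genes with clone or predicted names were left out of the 9577. Ncr1 with Il2rb, both members, had r = 0.962. All points share the 4 groups, so r mostly reflects their means. Ifng was most like Hnrnpd (r = 0.997), Dgat2 (0.997), Sav1 (0.996) and Il1a (0.996). Gzmb was most like Gzmc (0.982), Tbx21 (0.981), Btg1 (0.981) and Tnfrsf9 (0.974), and Il2rb like Gzmc (0.984), Satb1 (0.974), Cysltr2 (0.972) and Ms4a4b (0.972). Ncr1 was nearest to Ms4a4b (0.975), Ppp1r16b (0.967), Tnfrsf18 (0.958) and Satb1 (0.949), and Prf1 to Thy1 (0.948), Rbm3 (0.945), Plscr1 (0.938) and Papss1 (0.938). For the CD3 genes the nearest were Ly6i for Cd3d (0.957), Gimap3 for Cd3e (0.904) and Mcpt8 for Cd3g (0.925), and for Nkg7 it was Ints11 (0.932).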

How the data were processed

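RNA-seq of 12 libraries of mouse bone marrow-derived macrophages was analysed from 1 deposited table. It holds whole-number counts per gene, made by the authors from reads aligned with TopHat2 to mm10, per the submitters' processing notes, with deposited FPKM values per gene length beside them and the authors' own log2 fold changes and p-values. The counter and its handling of strand are not given in the sources used here.

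Members and lists were chosen with earlier results of these data known. Groups follow the labelled titles. Genes with low counts were removed with filterByExpr, libraries were scaled by TMM, and 1 edgeR (4.0.16, R 4.3.3) quasi-likelihood fit over the 4 groups gave 5 contrasts, with p-values adjusted by Benjamini-Hochberg over all 14286 tested genes and called under 0.05. DESeq2 (1.42.0) was an alternative, and the steps were tested on simulated data. The SE is the log2 fold change over the square root of edgeR's F. All members are named. From each list at most 4 called genes of lowest p per contrast are named, a gene outside that being marked, and for likeness the 4 genes of highest r, of which the CD3 genes and Nkg7 show the first. Cd4, Il7r and Cd28 are given for levels, and Trac as a defining T cell gene. Counting intervals are 95% and exact, and cover counting error only. The values of 1 called gene are not reported here. Alternatives are given in the closing section.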

Additional observations from a re-analysis of the deposited data

How the results depend on the processing

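Each member's log2 fold change was recomputed under other scalings, filters and tests and without each library in turn. Library totals in place of TMM moved the median over all genes to -0.46 and -0.72 for LPS in Lyz2-Cre and Hdac3f/f cells, and to 0.29 for the genotype difference with LPS and 0.27 for the interaction. It gave 2109 genes higher and 6463 lower after LPS in Lyz2-Cre, 2086 and 8242 in Hdac3f/f, 4465 and 1329 for genotype with LPS, and 1134 and 448 for the interaction. It also turned the sign of LPS responses that were not called, for Cd3g in Lyz2-Cre (-0.31) and for Cd3d (-0.28), Cd3g (-0.41) and Nkg7 (-0.55) in Hdac3f/f, of the genotype difference of Ifng with LPS (0.085), and of the interaction for Cd3g (0.10), Ncr1 (0.16) and Il2rb (0.063). With DESeq2 size factors and with the DESeq2 test, Cd3e in Lyz2-Cre was at 0.0056 after LPS. DESeq2 called 586 interactions higher and 1189 lower. Without a filter, 1463 genes were lower without LPS. A fit of only the 2 groups compared called 3 members higher without LPS.

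Leaving out 1 library, genes called higher between genotypes without LPS ranged over 267 to 1223 and lower over 461 to 1335, and members called higher over 0 to 5. With LPS these ranges were 1262 to 3007, 1536 to 2997 and 2 to 7. For the interaction they were 108 to 957 higher and 405 to 1038 lower genes. Signs that were not called turned in the LPS responses of Cd3e (-0.25 to 0.21) and Cd3g (-0.17 to 0.32) in Lyz2-Cre and of Cd3e (-0.66 to 0.34) and Nkg7 (-0.38 to 0.53) in Hdac3f/f, and in the genotype differences of Prf1 without LPS (-0.068 to 0.30) and Ifng with LPS (-0.40 to 0.34). Interaction ranges were -0.39 to 0.24 for Cd3d, -0.37 to 0.65 for Cd3e, -0.40 to 0.10 for Cd3g, -0.42 to 0.21 for Ncr1, -0.11 to 0.81 for Nkg7 and -0.51 to 0.26 for Il2rb. The causes were not tested.

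The labels do not say whether replicate numbers pair libraries, and the values show no strong pairing. Of 18 same-numbered pairs, 5 had deviations correlated above 0.1 (range -0.404 to 0.217). In another group, 4 of 12 libraries matched their own number best. With 3 libraries per group, these values cannot exclude pairing. With the number as a block, 6 members were called higher in Lyz2-Cre without LPS, with Cd3e added, and 6 with LPS, with Gzmb added. Few counts limit Ifng without LPS, Prf1 without LPS and Cd3e.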
